A study of Mus musculus with 34 samples.

Results

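The genes described here are 7 that mark 2 epithelial compartments of the lung, read out in RNA of mouse heart: the club cell genes Scgb1a1, Scgb3a1, Scgb3a2 and Cyp2f2, and the alveolar surfactant genes Sftpc, Sftpa1 and Sftpb. They were chosen by name, and a probe was taken as a member when its RefSeq accession belongs to a listed gene. Of the 7 genes, 6 had such a probe, and 4 of those passed the filter on dim probes and were tested, among 19798 genes tested of 33269 in the whole series. Scgb3a2 was not analysed here, because the RefSeq table used for names pairs it with no accession that a probe carries; the array may still hold a probe for it under an older accession. Sftpa1 and Sftpb did not pass the filter and are described by their values alone.

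The study asked whether carbon black nanoparticles delivered to the lung change gene expression in the heart. Female C57BL/6 mice of 5 to 6 weeks at arrival received, by instillation into the trachea, a single dose of 162 µg of the carbon black nanoparticle Printex 90, or vehicle alone. The vehicle, which both arms shared, was 0.9% NaCl with 10% of cell-free lavage fluid from lungs of C57BL/6 mice, given as 40 µl followed by 150 µl of air. Hearts were taken 1, 3 or 28 days later, and RNA came from a randomly taken piece that included both ventricles. The control groups held 6 mice each. The carbon black groups held 6 mice at day 1 and 5 on each later day. Each mouse had 1 array of its own. On each array 200 ng of heart RNA labelled with Cy5 competed with Cy3-labelled Universal Mouse Reference RNA, a commercial pool, so every value is a log2 ratio of heart over reference unless a signal is named. Replicate numbers only name the mice. As 1 gene's probe cannot be compared in level with another's, comparisons below are between arrays for the same gene.

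Club cells are non-ciliated secretory cells of the small airways. They release secretoglobins, small proteins of the airway lining fluid, and they carry cytochromes P450 that oxidise inhaled chemicals. Alveolar type 2 cells make surfactant, the lipid and protein film that lowers surface tension in the alveoli, from surfactant proteins A, B, C and D. The transcription factors NKX2-1 and FOXA1 or FOXA2, which bind TCAAG-like and TGTTT-like cores, are known activators of several of these genes in lung epithelium. Heart muscle has neither cell type, so these genes serve there as a readout of RNA with a lung epithelial pattern. In bulk RNA, fewer cells of a type and less RNA per cell cannot be told apart.

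The RefSeq table for build GRCm38.p6 held the promoter of 4 members, and the 250 bases before each annotated start are shown on the gene's own strand, because all 4 genes were high on day 3 control replicate 1 below. Scgb3a1 lies at chr11:49663345-49663594, Cyp2f2 at chr7:27119705-27119954, Sftpa1 at chr14:41131538-41131787 and Sftpb at chr6:72304360-72304609, each on the plus strand and upstream of exon sequence. Capitals mark each match to TCAAG or TGTTT on either strand (CTTGA and AAACA on the strand shown).
Scgb3a1: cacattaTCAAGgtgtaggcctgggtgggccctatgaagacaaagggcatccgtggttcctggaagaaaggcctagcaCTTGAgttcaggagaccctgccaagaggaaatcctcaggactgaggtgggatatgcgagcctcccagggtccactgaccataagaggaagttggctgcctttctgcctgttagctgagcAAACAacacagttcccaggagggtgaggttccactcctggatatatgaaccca
Cyp2f2: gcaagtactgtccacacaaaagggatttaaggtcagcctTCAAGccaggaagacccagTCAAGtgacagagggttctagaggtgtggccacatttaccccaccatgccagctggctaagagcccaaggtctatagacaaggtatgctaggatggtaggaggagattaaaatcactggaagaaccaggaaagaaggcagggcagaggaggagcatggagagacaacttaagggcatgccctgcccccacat
Sftpa1: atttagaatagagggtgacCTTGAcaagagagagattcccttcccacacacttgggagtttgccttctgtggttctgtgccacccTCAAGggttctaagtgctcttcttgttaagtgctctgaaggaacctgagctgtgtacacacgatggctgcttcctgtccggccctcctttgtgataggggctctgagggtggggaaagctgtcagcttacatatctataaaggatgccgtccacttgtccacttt
Sftpb: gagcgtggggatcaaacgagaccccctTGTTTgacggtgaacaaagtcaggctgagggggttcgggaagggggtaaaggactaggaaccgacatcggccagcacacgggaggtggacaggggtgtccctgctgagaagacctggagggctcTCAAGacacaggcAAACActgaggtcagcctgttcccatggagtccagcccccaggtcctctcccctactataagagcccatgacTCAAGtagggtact
Each of the 4 windows held 2 matches to TCAAG. Among 32851 promoter windows of the same length, 35.9% held at least 1 and 8.34% at least 2. TGTTT matched 1 time in Scgb3a1 and 2 times in Sftpb, with no match in these 250 bases of Cyp2f2 and Sftpa1, and 46.4% of all windows held it. Such a match is a description of letters and not evidence of binding.

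The arrays read 41174 probes, of which 42.8% to 66.6% of spots per array (median 54.9%) were well above background in the heart channel. All 8 cardiomyocyte genes listed as a check of the tissue, such as Myh6 and Tnni3, were well above background on all 34 arrays. The arrays lay on 14 slides read on 7 scan days. All 10 arrays at slide position 4 were carbon black arrays. At this position, array position and treatment cannot be told apart. The number of arrays, 5 or 6 per group, limits the precision. No member was saturated on any array.

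The main pattern in these genes was a split within a group, the day 3 controls. On 3 of the 6 control arrays of day 3, replicates 1, 5 and 6, Scgb1a1, Scgb3a1 and Cyp2f2 stood at 2.88 to 5.84 while no other array exceeded 1.52 for any of them. Replicate 1 also had high Sftpc, Sftpa1 and Sftpb. A single carbon black array of day 3, replicate 1, which shared a slide with control replicate 1, had high Sftpc and Sftpa1 and values near those of other mice for the club cell genes. The other 30 arrays held low values throughout, and most results that rest on the 4 arrays are given with and without them. These 4 were picked after their values were seen.

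**Figure D1:**
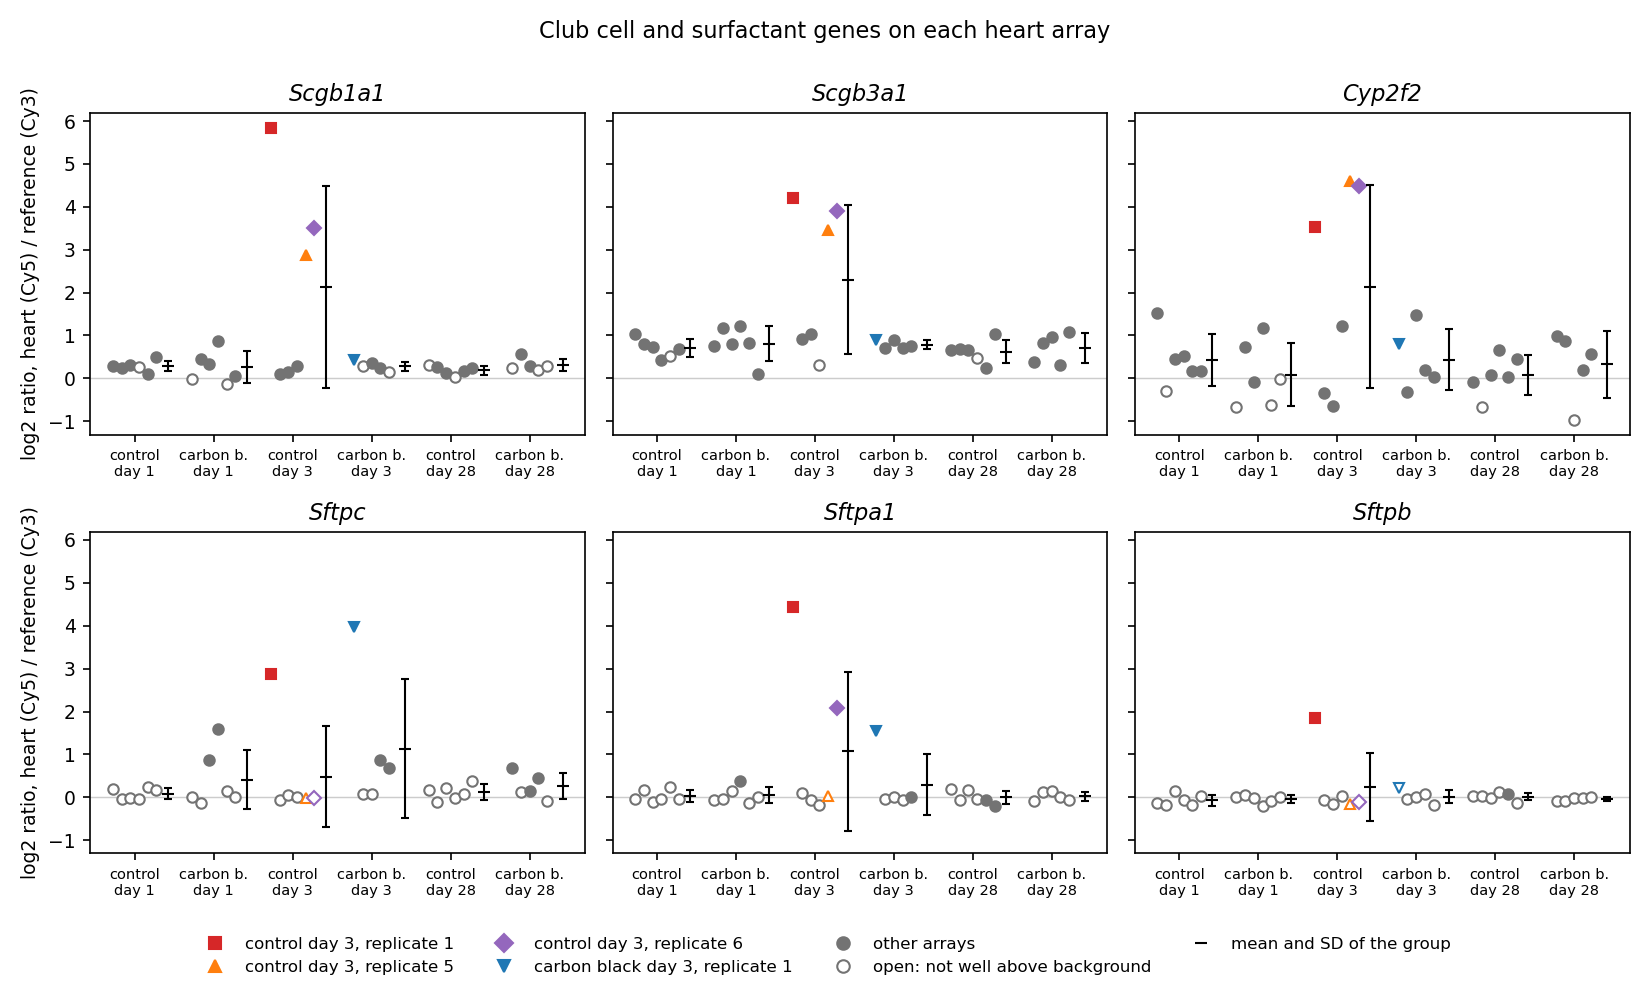
Log2 ratio of heart (Cy5) over reference (Cy3) for 6 genes on each of the 34 arrays, by group; filled symbols are well above background, open ones are not, and bars give the group mean and SD. The coloured symbols are the 4 day 3 arrays that stand apart: replicates 1, 5 and 6 of the control for the club cell genes, and replicate 1 of each arm for Sftpc.

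Scgb1a1 encodes secretoglobin 1A1, the most abundant secreted protein of club cells. It was well above background on 24 of 34 arrays. In the day 3 controls its log2 ratios were 5.84, 0.11, 0.14, 0.28, 2.88 and 3.50 in replicates 1 to 6. The group therefore split into 3 high and 3 low mice with nothing between 0.28 and 2.88. On the 5 carbon black arrays of day 3 it read 0.42, 0.28, 0.35, 0.23 and 0.15, all below the 3 high controls and overlapping the 3 low ones. The other groups ran from 0.11 to 0.49 with a median of 0.28 in day 1 controls, from -0.13 to 0.87 (median 0.19) in day 1 carbon black mice and from 0.03 to 0.32 (median 0.20) in day 28 controls. In the day 28 carbon black mice it read 0.24, 0.56, 0.29, 0.19 and 0.29. By group mean the order was day 3 control (2.12 ± 2.35, SD, n = 6), day 28 carbon black (0.31 ± 0.14, n = 5), day 1 control (0.29 ± 0.12, n = 6), day 3 carbon black (0.29 ± 0.10, n = 5), day 1 carbon black (0.26 ± 0.37, n = 6) and day 28 control (0.19 ± 0.10, n = 6). Each neighbouring pair in that order differed by less than the larger SD of the pair. In signal, the heart channel read 13289 on control replicate 1, 585 on replicate 5 and 5310 on replicate 6, against 85 to 196 on the other 30 arrays.

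Scgb3a1, a secretoglobin of airway secretory cells, was well above background on 31 arrays. Its day 3 control values were 4.20, 0.91, 1.02, 0.30, 3.46 and 3.91. The same 3 mice were high, with nothing between 1.02 and 3.46. The day 3 carbon black values were 0.88, 0.71, 0.90, 0.70 and 0.76, inside the range of the 3 low controls. In day 1 controls it ran from 0.44 to 1.03 (median 0.71), in day 1 carbon black mice from 0.11 to 1.23 (median 0.81) and in day 28 controls from 0.24 to 1.03 (median 0.65). The 5 day 28 carbon black values were 0.39, 0.83, 0.97, 0.30 and 1.08. The group means were 2.30 ± 1.74 in day 3 controls, then 0.81 ± 0.40 in day 1 carbon black, 0.79 ± 0.10 in day 3 carbon black, 0.72 ± 0.35 in day 28 carbon black, 0.70 ± 0.21 in day 1 control and 0.62 ± 0.26 in day 28 control mice. No neighbours in this order differed beyond their spread.

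Cyp2f2 encodes the cytochrome P450 that club cells use to bioactivate naphthalene, and it is also made in liver. It was well above background on 28 arrays and had the widest spread of the 3 club cell genes outside the 3 high mice. The day 3 controls read 3.52, -0.34, -0.65, 1.22, 4.59 and 4.49. Here replicates 5 and 6 exceeded replicate 1, whereas for Scgb1a1 and Scgb3a1 replicate 1 had the highest ratio of all arrays. In heart signal replicate 6 was the highest for Scgb3a1, at 5378 against 2537 on replicate 1. The day 3 carbon black values were 0.80, -0.32, 1.48, 0.20 and 0.04, within the range of the 3 lower controls but for 1.48. It ran from -0.30 to 1.52 (median 0.32) in day 1 controls, from -0.68 to 1.16 (median -0.05) in day 1 carbon black mice and from -0.67 to 0.66 (median 0.06) in day 28 controls. The day 28 carbon black mice read 0.98, 0.86, -0.97, 0.20 and 0.56. The means were 2.14 ± 2.37 in day 3 controls, 0.44 ± 0.71 in day 3 carbon black, 0.42 ± 0.61 in day 1 control, 0.33 ± 0.79 in day 28 carbon black, 0.08 ± 0.73 in day 1 carbon black and 0.08 ± 0.46 in day 28 control mice, and again no neighbours differed beyond their spread.

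Replicates 1, 5 and 6 of the day 3 controls were the 3 highest of all 34 arrays for each of the 3 club cell genes that could be matched to a probe. Of 33061 genes with a value on every array, 96 (0.29%) had these 3 arrays on top. The arrays lay on 3 different slides.

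Sftpc encodes surfactant protein C, a peptide made by alveolar type 2 cells alone in the adult lung. It was well above background on only 9 of 34 arrays, so most of its values are bounds set by background. In day 3 controls it read 2.87 in replicate 1 and -0.06, 0.05, 0.02, -0.01 and -0.01 in replicates 2 to 6. The 2 mice with high Scgb1a1 on replicates 5 and 6 thus had Sftpc at background. In day 3 carbon black mice it read 3.98, 0.07, 0.09, 0.87 and 0.67, with replicates 1, 4 and 5 well above background. In day 1 carbon black mice it ran from -0.14 to 1.60 with a median of 0.07, and replicates 3 (0.87) and 4 (1.60) were well above background. The day 28 carbon black values were 0.69, 0.13, 0.15, 0.44 and -0.08. No day 1 control (-0.05 to 0.25, median 0.07) and no day 28 control (-0.12 to 0.39, median 0.12) was well above background. The group means fell in the order day 3 carbon black (1.13 ± 1.63), day 3 control (0.48 ± 1.17), day 1 carbon black (0.41 ± 0.69), day 28 carbon black (0.27 ± 0.30), day 28 control (0.12 ± 0.18) and day 1 control (0.09 ± 0.14), with no neighbours apart by more than the larger SD.

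Sftpa1 encodes surfactant protein A, a collectin that binds microbes. Its brighter probe was well above background on 7 arrays. It read 4.43 on day 3 control replicate 1, 2.09 on replicate 6 and 1.55 on day 3 carbon black replicate 1, and lay between -0.21 and 0.38 on the other 31 arrays, day 3 control replicate 5 (0.03) among them. A second, dimmer Sftpa1 probe was well above background only on day 3 control replicate 1, where it read 1.63. On replicate 6 of the day 3 controls and replicate 1 of the carbon black mice the second probe read -0.01 and 0.19, so the 2 probes differ there. Sftpb, surfactant protein B, which is needed to spread the surfactant film, read 1.85 on day 3 control replicate 1 and 0.21 or less on all other arrays. It was well above background on 2 arrays, the other being a day 28 control at 0.08.

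The reference came from 1 pool on every array, yet its channel rose on the same arrays. For Sftpc the Cy3 signal had a median of 32.5 over the 34 arrays and read 7861.5 on day 3 control replicate 1 and 213 on day 3 carbon black replicate 1. The corresponding heart signals were 27004.5 and 2586. In heart signal the control array was therefore 10.4-fold higher, although its log2 ratio, 2.87, was lower than the 3.98 of the carbon black array. For Scgb1a1 the reference signal was 9.37 times its median on control replicate 1, 2.80 times on replicate 5 and 20.1 times on replicate 6. The same was read for Scgb3a1 at 5.86, 2.41 and 17.1 times and for Cyp2f2 at 2.97, 3.40 and 5.33 times. Probes with a dim reference were then counted over the whole array, the members included. Among probes whose reference was well above background on 5 arrays at most and whose heart signal was at least 8 times its median, the reference was at least 2 times its median for 4 of 5 on control replicate 1, 23 of 35 on replicate 5, 9 of 10 on replicate 6 and 1 of 1 on the carbon black array. Sftpc and Sftpa1 were among the 5 on control replicate 1, and the 1 on the carbon black array was Sftpc itself. No member met the rule on replicates 5 and 6, so the counts there are of other probes. The cause was not tested.

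**Figure D2:**
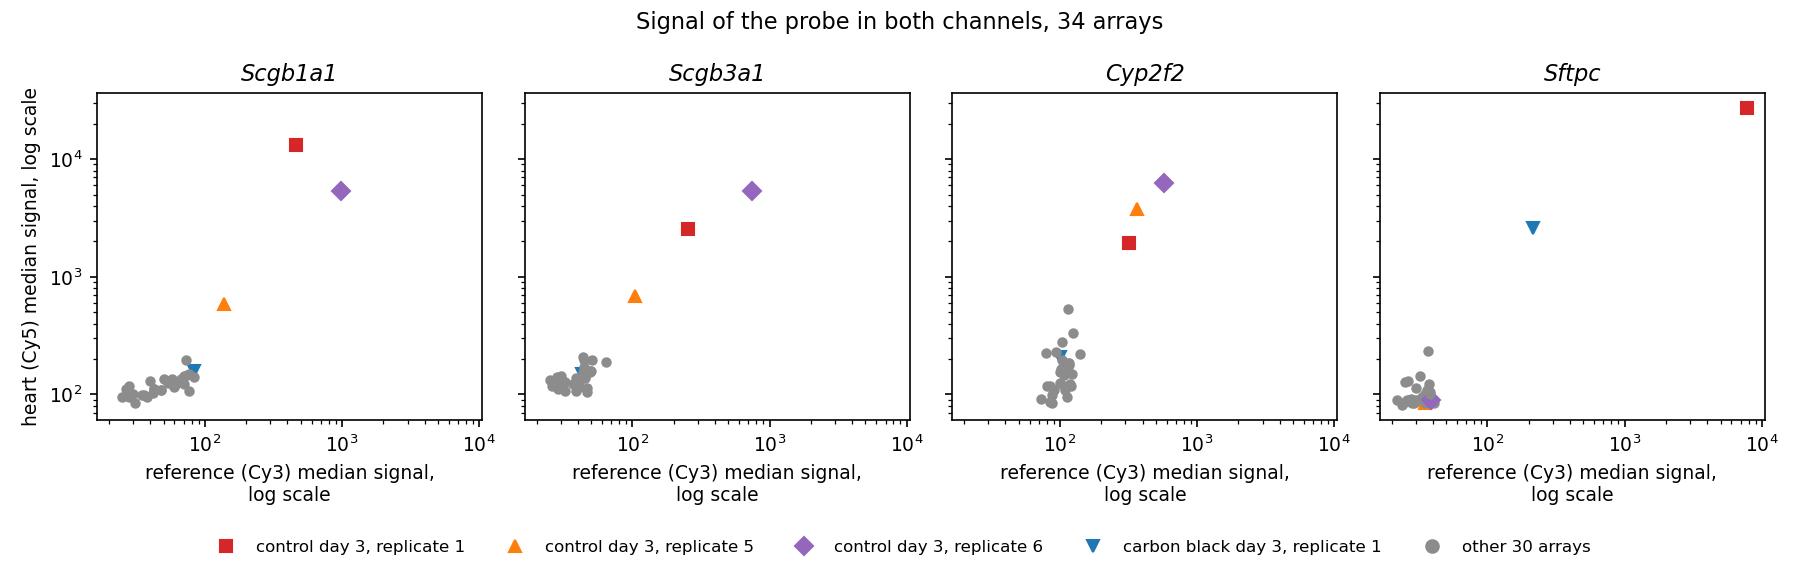
Median signal of the heart (Cy5, vertical) and reference (Cy3, horizontal) channels for 4 genes on the 34 arrays, both axes logarithmic. The coloured arrays that are high in the heart channel are also displaced to the right, most for Sftpc on day 3 control replicate 1, at 7861.5 against a median of 32.5.

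Other genes of lung cells moved with the members on these arrays, and they differed between the 3 control mice. The values that follow are log2 deviations from each gene's median over the 34 arrays. The shares of all 33061 genes with their highest value on these arrays were 4.33% for day 3 control replicate 1, 4.17% for replicate 5, 5.3% for replicate 6 and 1.52% for day 3 carbon black replicate 1. Of 15 alveolar type 2 genes with a probe besides the members, 9 were highest on control replicate 1 and 0 on replicate 5 or 6. Sftpd, surfactant protein D, stood at 5.91 there, at 0.45 and 2.73 on replicates 5 and 6, and at 1.54 on the carbon black array. The type 2 chemokine gene Cxcl15 stood at 3.40 on replicate 1 and Napsa, the protease that processes surfactant protein B, at 3.02. Napsa was higher still, at 3.57, on a mouse outside the 4.

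Of 8 alveolar type 1 genes, those of the thin gas exchange cells, 5 were highest on control replicate 1. Ager, the receptor that marks type 1 cells, read 3.28, and the tight junction gene Cldn18 read 3.18. On replicates 5 and 6 these 2 genes lay between -0.28 and 0.08. The water channel gene Aqp5, at 2.08 on replicate 1, still read 0.64 and 1.67 there, and Gprc5a, at 2.31 on replicate 1, read 0.39 and 0.63. Chil3, a chitinase-like protein of alveolar macrophages, read 3.86 on replicate 1, 0.34 on replicate 5 and -0.34 on replicate 6. Other genes of that list went otherwise. On replicates 1, 5 and 6 the receptor gene Marco read 0.63, 2.40 and 0.71, Fabp1 1.57, 6.66 and 4.47, and Mrc1 0.04, -0.25 and 0.16. Over the 11 alveolar macrophage genes with a probe, 3 were highest on replicate 1. Their mean was 0.73, 0.90 and 0.62 on the 3 arrays, against -0.49 to 0.75 on the other 30 arrays. Their median was 0.63, 0.09 and 0.15, so the means on replicates 5 and 6 lean on Fabp1. Fabp1 also read 4.13 on day 3 carbon black replicate 1 and 3.76 on day 3 control replicate 4. The mean of the liver genes described below was 1.88 and 2.12 on these arrays. How far Fabp1 belongs with liver transcripts was not tested.

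Of 16 club cell and airway secretory genes besides the members, 7 were highest on control replicate 6, 4 on replicate 5 and 2 on replicate 1. Bpifa1, a secreted defence protein of the upper and conducting airways, read 4.65, 3.98 and 4.69 on replicates 1, 5 and 6 and no more than 1.65 on the other 30 arrays. The lectin gene Reg3g read 1.63, 1.62 and 3.73, while Muc5b, a gel-forming airway mucin, read 0.53, 0.06 and 1.90. Of 6 basal cell genes, 3 were highest on replicate 6, with the keratin gene Krt15 at 2.71 and the water channel Aqp3 at 1.90. Among 11 genes of ciliated cells, 3 were highest on replicate 1 and 3 on replicate 6, and none on replicate 5. Dynlrb2, a dynein light chain, read 1.89, 0.05 and 1.93, and Foxj1, the master regulator of motile cilia, read 0.59, 0.06 and 0.83. In the means over each list, the club and airway secretory genes read 0.89, 1.16 and 1.76 on the 3 arrays against -0.69 to 0.61 elsewhere, and the alveolar type 2 genes 1.69, 0.09 and 0.21 against -0.34 to 0.54.

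Of the regulators, Nkx2-1 read 1.01 on replicate 1 and -0.02 and 0.06 on replicates 5 and 6, with 0.07 at most on the other 30 arrays. It was well above background on 1 array. Foxa2, which is also a liver factor, read 2.63, 3.07 and 0.59, and Foxa1 was well above background on no array. Cdh1, the adhesion molecule of epithelia, read 2.57, 1.79 and 1.47 against 0.26 at most on the other 30 arrays.

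Genes of another organ moved on part of the same arrays. Of 9 liver genes with a probe, 7 were highest on day 3 control replicate 5 and 0 on replicate 1. The mean deviation of the list was 3.99 on replicate 5, 2.84 on replicate 6, 0.41 on replicate 1 and 1.88 on day 3 carbon black replicate 1, against -0.97 to 2.44 on the other 30 arrays. Apoh, a plasma apolipoprotein, read 6.88 on replicate 5 and 0.71 on replicate 1. Cyp2f2 followed this order, being higher on replicates 5 and 6 than on replicate 1, and outside the 4 arrays its 3 highest values, 1.52, 1.48 and 1.22, fell on arrays whose liver mean was 1.75, 2.44 and 2.12. The order did not hold throughout. Day 1 control replicate 3 had a liver mean of 2.19 and Cyp2f2 at 0.45, and day 1 carbon black replicate 4 had a liver mean of 0.16 and Cyp2f2 at 1.16. How much of the Cyp2f2 signal belongs with liver transcripts was not tested. The mean of the cardiomyocyte list was -0.63, -1.01 and -1.04 on the 3 control arrays and 0.24 on the carbon black array. Values in that range also occurred on other arrays, such as -0.82 on day 1 control replicate 5 and -0.69 on day 28 control replicate 6. Their part in the result was not tested. The lists for thyroid, cartilage and oesophagus had medians between -0.11 and 0.09 on the 4 arrays, and the thymus list between 0.02 and 0.25. The adipose list had a mean of 0.40, 0.86 and 0.93 on control replicates 1, 5 and 6 and of -0.09, -2.20 and -3.53 on replicates 2, 3 and 4, and replicate 4 also read -3.87 for the atrial list. Over the other 30 arrays the adipose mean ran from -3.59 to 1.31. The part of fat and atrial tissue in the result was not tested.

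**Figure D3:**
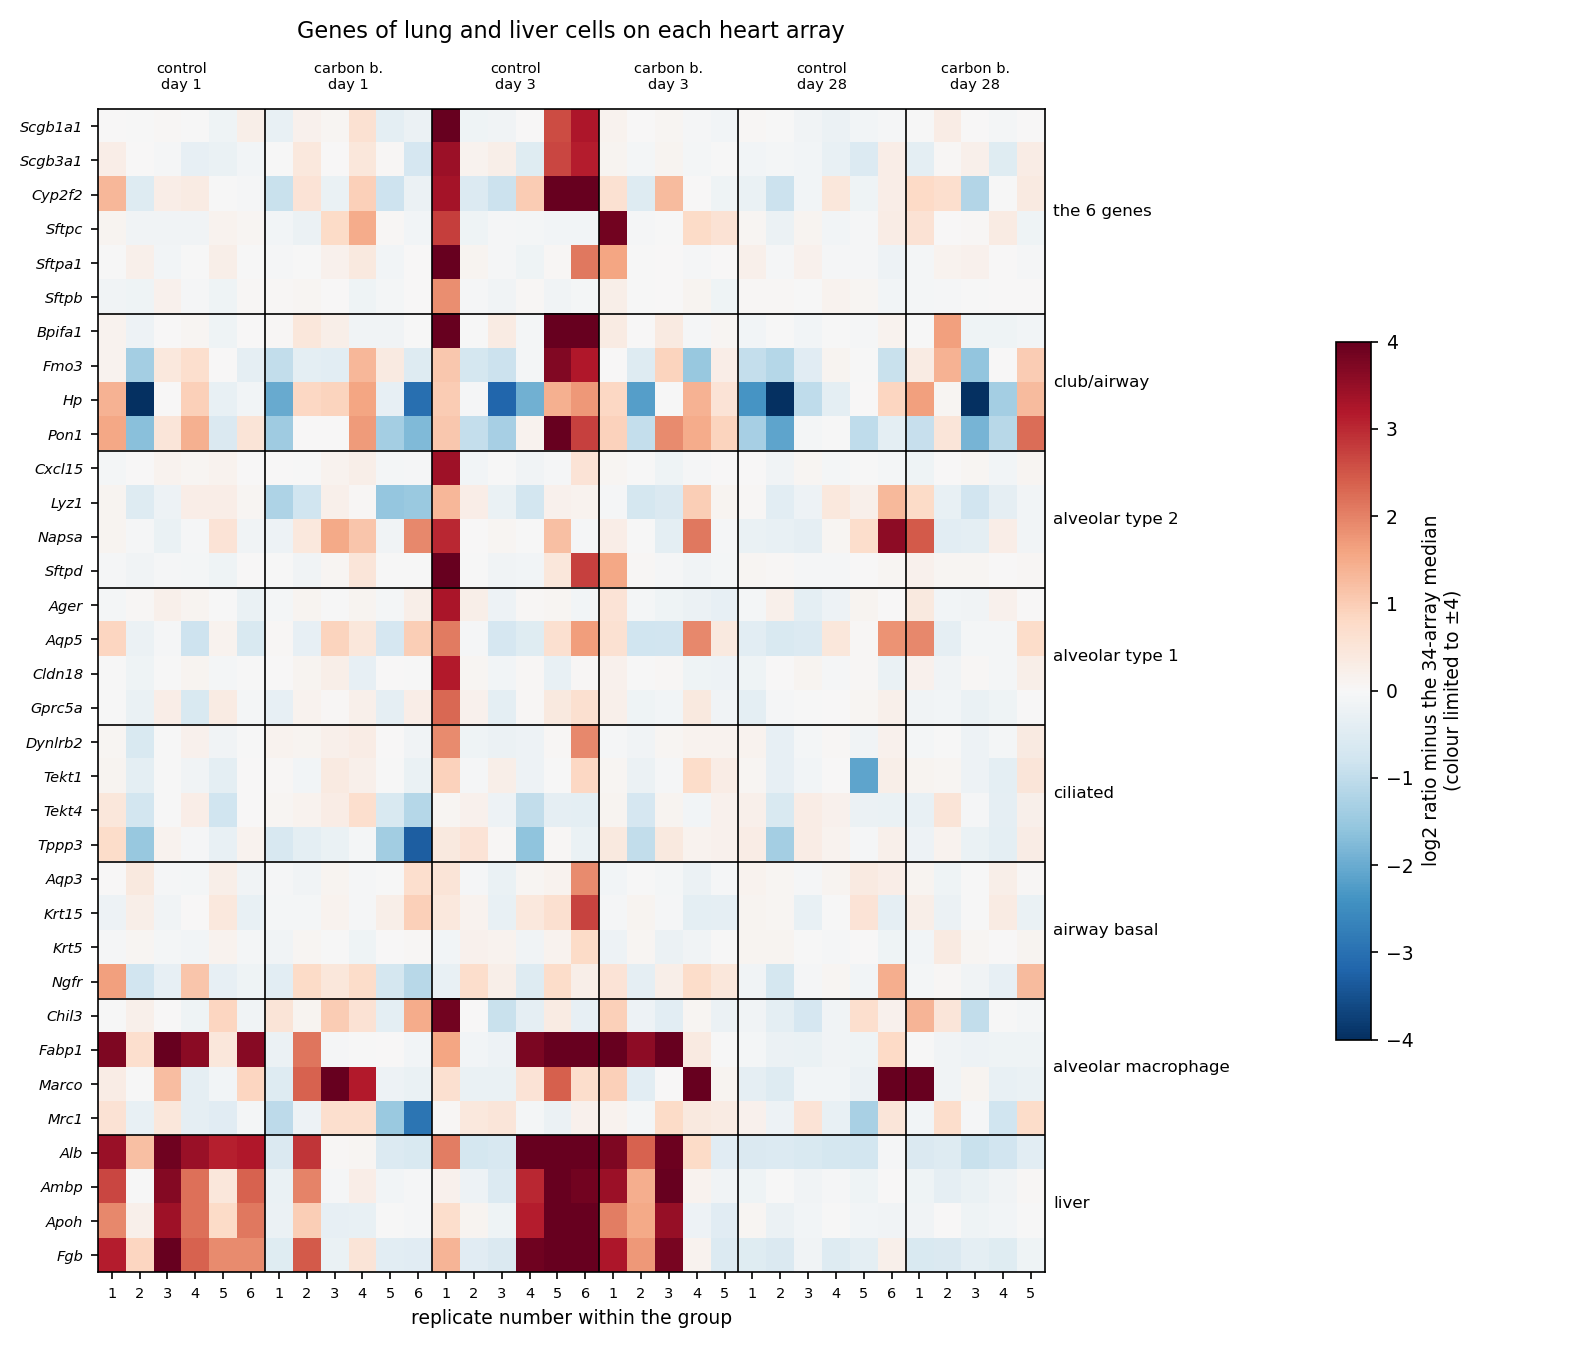
Log2 ratio minus the 34-array median (colour, limited to ±4) for the 6 genes and for up to 4 genes per cell type of widest range (rows), on each array (columns, by group and replicate number). Day 3 control replicate 1 is high for alveolar and airway genes, replicates 5 and 6 are high for club cell and liver genes, and liver genes are high on further arrays of days 1 and 3.

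Genes most like Scgb1a1 were named by Pearson correlation over the 34 arrays among 12509 genes, with no test. They were Cdh1 (r = 0.96), Scgb3a1 (0.94), Bpifa1 (0.93), Sec14l3 (0.90), Elapor1 (0.87), Drc1 (0.87), Sftpa1 (0.87), Cyp2b10 (0.87), Impdh1 (0.84) and Dynlrb2 (0.84). These correlations rest on the 3 high control arrays. Over the other 30 arrays Cdh1 had r = -0.11 and Scgb3a1 r = 0.43. Most like Sftpc were Sftpa1 (0.66), the chitinase-like genes Chil1 (0.65), Chil4 (0.60) and Chil3 (0.59), the sodium channel subunit Scnn1a (0.57), Rph3a (0.52), Gprc5a (0.51), Npsr1 (0.51), Olfr1298 (0.51) and Fgf23 (0.51). Over the 30 arrays Chil1 and Scnn1a had r = 0.53 and 0.56, and Rph3a and Npsr1 had 0.06 and -0.01. The arrays share a reference pool and, in groups of up to 4, a slide.

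Carbon black was compared with vehicle at each day. At day 3 the means of the 3 club cell genes were lower in carbon black than in control mice, but none of the 4 tested members passed limma's test after Benjamini-Hochberg adjustment over 19798 genes. Scgb1a1 differed by -1.84 ± 0.58 (log2 fold change and standard error, adjusted p = 0.345), Scgb3a1 by -1.51 ± 0.45 (adjusted p = 0.345), Cyp2f2 by -1.70 ± 0.67 (adjusted p = 0.360) and Sftpc by 0.66 ± 0.49 (adjusted p = 0.630). At an unadjusted limma p under 0.05, 3 of the 4 were lower and 0 higher, and with Agilent's processed signals 0 of 4 stood at that level. Of all genes 11.1% were at that level in either direction and 4.11% were lower, and 0 of 19798 (0%) passed after adjustment although 2199 had an unadjusted p under 0.05. In the heart channel alone, without the reference, the difference was -2.91 for Scgb1a1 and -2.40 for Cyp2f2, and that of Sftpc turned to -0.20, none past the test. The 3 low values rest on control replicates 1, 5 and 6. Without these 3 arrays and carbon black replicate 1 the differences were 0.08 ± 0.15 for Scgb1a1, 0.02 ± 0.22 for Scgb3a1, 0.27 ± 0.51 for Cyp2f2 and 0.42 ± 0.28 for Sftpc. Without the 3 control arrays alone Sftpc differed by 1.13 ± 0.51 (limma adjusted p = 0.933), a value that then rests on carbon black replicate 1. Sftpc passed the filter on dim probes only through the carbon black groups of days 3 and 28, with 3 of 5 arrays well above background in each. Its exposure differences at these days and over the mean of the 3 days are therefore not independent of the filter.

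The same 3 control arrays entered the comparisons over time in vehicle-treated mice. Day 3 exceeded day 1 by 1.84 ± 0.56 for Scgb1a1, 1.60 ± 0.43 for Scgb3a1, 1.72 ± 0.64 for Cyp2f2 and 0.39 ± 0.47 for Sftpc, none past limma's test (adjusted p = 0.999 each). Unadjusted, 3 of 4 members had p under 0.05, all of them higher at day 3, against 2.05% of all genes in either direction and 1.39% higher (405 of 19798, with 0 after adjustment, 0%). From day 3 to day 28 the members differed by -1.94 ± 0.56, -1.68 ± 0.43, -2.06 ± 0.64 and -0.36 ± 0.47 in the same order (limma adjusted p = 0.999 each). Again 3 of 4 had an unadjusted p under 0.05 and were lower at day 28, beside 4.43% of all genes in either direction and 2.98% lower (877, with 0 after adjustment). Both comparisons share the day 3 controls with the exposure comparison of that day, and the values are given side by side for that reason. Without the 4 arrays, day 3 against day 1 read -0.11 ± 0.14 for Scgb1a1, 0.05 ± 0.21 for Scgb3a1 and -0.35 ± 0.47 for Cyp2f2. Control day 28 against day 1 ranged from -0.34 (Cyp2f2) to 0.04 (Sftpc), and 0 of 4 members had an unadjusted limma p under 0.05, against 1.18% of genes (234, with 0 after adjustment).

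At day 1 the 4 members lay between -0.34 ± 0.64 (Cyp2f2) and 0.33 ± 0.47 (Sftpc), and 0 of 4 had an unadjusted limma p under 0.05, against 7.18% of all genes (1422, with 0 after adjustment). At day 28 they lay between 0.09 ± 0.45 (Scgb3a1) and 0.24 ± 0.67 (Cyp2f2), again 0 of 4, against 2.98% (590, with 0 after adjustment). The 95% intervals at day 1 reached from -0.76 to 0.99 for Scgb3a1 and from -0.63 to 1.29 for Sftpc. With the 4 arrays left out of the common estimate of spread, the day 1 interval of Scgb1a1 reached from -0.27 to 0.21 around a difference of -0.03.

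Over the mean of the 3 days, carbon black and control mice differed by -0.58 ± 0.33 for Scgb1a1, -0.44 ± 0.26 for Scgb3a1, -0.60 ± 0.38 for Cyp2f2 and 0.38 ± 0.28 for Sftpc (limma adjusted p = 0.361, 0.379, 0.428 and 0.516). None of the 4 passed, whereas 387 of all 19798 genes did (1.95%). At an unadjusted p under 0.05 stood 0 of 4 members and 18.3% of all genes. Without the 4 arrays the club cell genes read 0.06 ± 0.08, 0.08 ± 0.11 and 0.06 ± 0.25, and Sftpc 0.30 ± 0.14 (limma adjusted p = 0.362). Here too Sftpc had passed the filter only through carbon black groups. The exposure effect did not differ between days past the test for any member (limma adjusted p = 1.000 each). The unadjusted p for this difference was 0.0404 for Scgb1a1, 0.0213 for Scgb3a1, 0.127 for Cyp2f2 and 0.759 for Sftpc, and 0.99% of all genes had one under 0.05 (196, with 0 after adjustment). For the club cell genes this difference draws on the 3 high day 3 control arrays, and it is not given here without them.

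**Figure D4:**
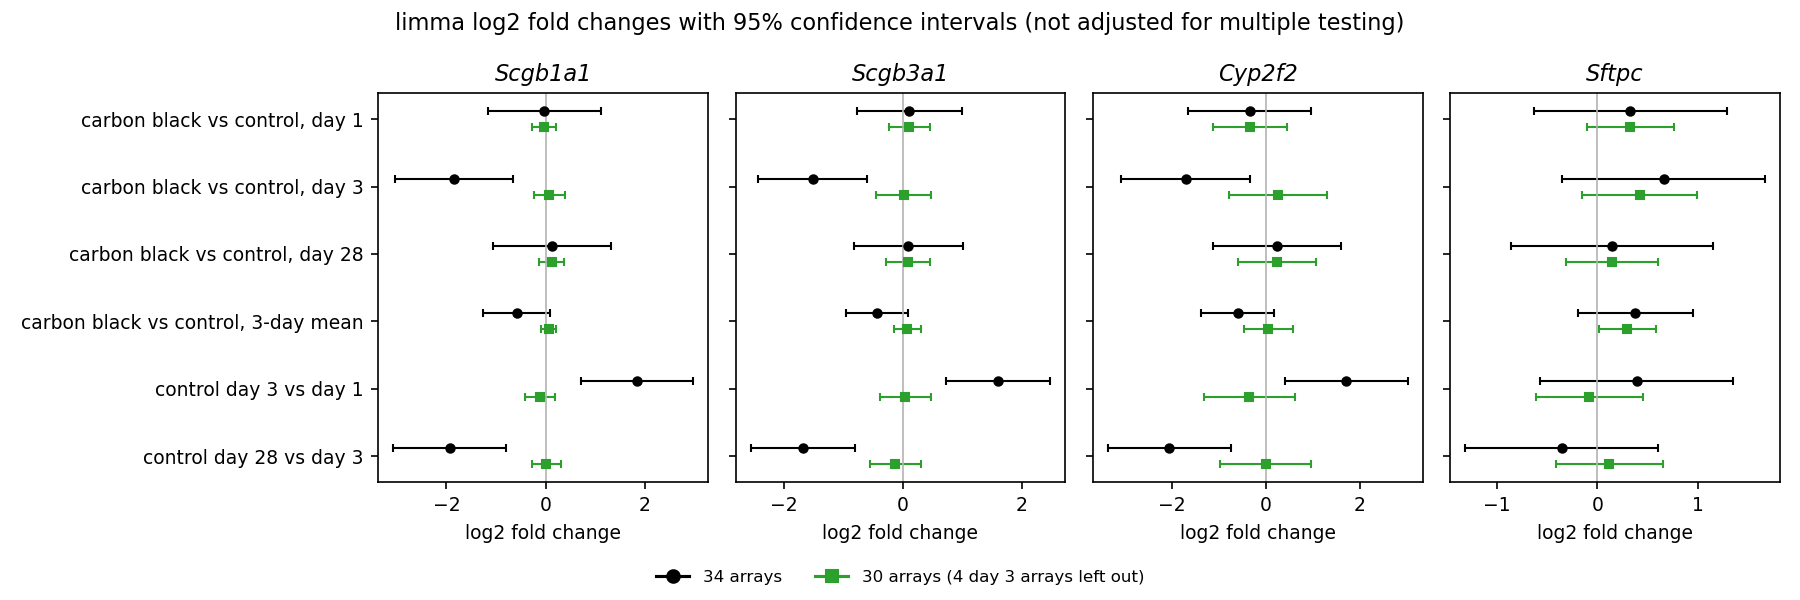
Limma log2 fold changes with unadjusted 95% confidence intervals for 4 genes in 6 comparisons, over all 34 arrays (black) and with 4 day 3 arrays left out (green). The comparisons that involve the day 3 controls move to near 0 for the 3 club cell genes once those arrays are left out, from -1.84 to 0.08 for Scgb1a1 at day 3.

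The lists around the members gave no call in these comparisons either. Of 14 club cell and airway secretory genes tested, 4 had an unadjusted limma p under 0.05 and were lower in day 3 carbon black mice, beside 4.11% of all genes, 0 were higher and 0 passed after adjustment. Without the 4 arrays 12 of these genes were tested, of which 1 was lower and 1 higher at that level. With all arrays the median difference of the list was -0.18 against 0.02 over all genes. Some of the 14 genes thus passed the filter on dim probes only with the 4 day 3 arrays included. A gene admitted by high day 3 controls tends to read lower in carbon black mice. The count of 4 of 14 and the median of this list are therefore not independent of the filter. How many of the 4 were admitted in this way is not given here. Of 12 alveolar type 2 genes 1 was lower by the same count and 0 passed, with a median of -0.21. Of 6 alveolar type 1 genes 0 reached it, with a median of -0.19. Over all 16 lists and 7 comparisons of groups 1 gene passed, the cardiac troponin gene Tnni3, at 0.82 ± 0.22 over the mean of the 3 days (limma adjusted p = 0.0470). Its adjusted p was 0.136 with slide, 0.0758 with scan day and 0.763 with array position as a fixed block, so the call was lost in each of these fits. Without the 4 day 3 arrays Tnni3 differed by 0.66 ± 0.23 (limma adjusted p = 0.220). The call was also lost with an offset of 10 (limma adjusted p = 0.0631) and with Agilent's processed signals (0.230). It was kept without background correction (0.0193) and in the authors' deposited table (0.0228).

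Sftpc was well above background more often in carbon black than in control hearts, in 8 of 16 against 1 of 18 arrays (Fisher's exact test, two-sided, p = 0.00556, adjusted p = 0.580 over 17737 probes). This comparison was chosen after the values were seen, and it did not pass; 6.03% of probes had a p under 0.05 and 0.958% had one at or below that of Sftpc. At slide position 4, which held carbon black arrays only, 6 of 10 were detected, and 2 of 6 carbon black arrays were detected at the other positions. On the 10 slides that held both arms of a day, the carbon black value of Sftpc was the higher in 7, by -0.20 to 1.63 with a median of 0.32. In the heart channel alone it was the higher in 6 of 10, and the control array was the higher by far on the slide that held replicate 1 of both arms at day 3. Scgb1a1 was higher in 5 of 10 such pairs, Scgb3a1 in 5 and Cyp2f2 in 4.

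Over the 30 arrays outside the 4, the members varied together only weakly. Scgb1a1 and Cyp2f2 had r = 0.49 (permutation p = 0.00570, adjusted p = 0.0342 over 6 pairs) and rho = 0.45 (permutation p = 0.0134, adjusted p = 0.0805). Scgb1a1 and Scgb3a1 had r = 0.43 (permutation p = 0.0184, adjusted p = 0.0454) and rho = 0.36 (permutation p = 0.0498, adjusted p = 0.149). Scgb1a1 and Sftpc had r = 0.44 (permutation p = 0.0227, adjusted p = 0.0454) and rho = 0.08 (permutation p = 0.658, adjusted p = 0.831). Without the 2 arrays farthest from the median of Scgb1a1, r was 0.37, 0.37 and 0.02 for the 3 pairs, so the last relation rests on those arrays. Over the 30 arrays Sftpc was well above background on 7 and Scgb1a1 on 20, so that these correlations run in part, and for Sftpc mostly, over values at background. On 1 of them, day 1 carbon black replicate 4, Scgb1a1 (0.87), Scgb3a1 (1.23) and Sftpc (1.60) each had their highest value of the 30. The other 3 pairs had r from 0.05 to 0.23 (adjusted p = 0.332 or more). With values centred on the mean of each scan day, r was 0.60 for Scgb1a1 and Cyp2f2 (permutation, adjusted p = 0.00312), 0.33 for Scgb1a1 and Scgb3a1 (adjusted p = 0.151) and 0.36 for Scgb1a1 and Sftpc (adjusted p = 0.146).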

How the data were processed

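Heart RNA of 34 mice in 6 groups was read on 2-colour Agilent arrays, and per the file headers the authors' scanner images were quantified with Feature Extraction 10.1.1.1 into median foreground and background intensity per spot. The deposited value table holds log2 ratios: per array it correlated at 0.995 to 0.998 (slope 0.988 to 0.996) with loess-normalised ratios without background correction, with column medians from -0.055 to -0.034, so that scale, centring and direction are known. Positive values mean higher in the heart. Control spots and outlier flags were left out and spots of 1 probe averaged. In limma 3.58.1 (R 4.3.3) median signals were corrected with normexp (offset 50) and normalised by loess within arrays. A probe was tested if, in 1 group or more, a share of 0.5 or more of arrays had its heart signal well above background, and if it lacked no more than 3 values. The brightest probe stood for a gene. The fit used 6 group means with 28 residual degrees of freedom, a Benjamini-Hochberg threshold of 0.05 and no covariate. Slide, scan day and array position were alternatives, beside other background corrections, normalisations, filters and the leaving out of arrays. Members were named through RefSeq accessions from a table for GRCm38.p6 (23374 of 41174 probes matched); the array header gives build mm8, and no array coordinates were used. Correlations used 100000 permutations. The fit was tested on simulated data. Genes most like a member were the 10 of highest Pearson correlation among genes well above background on at least 6 arrays, and up to 4 genes of widest range were named per list. The members and the 16 cell type lists were chosen with earlier results of these data known. Plots were drawn with matplotlib 3.10.9.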

Additional observations from a re-analysis of the deposited data

Results flagged for a closer look

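In groups of 5 or 6 arrays, a single array far from the others was looked for in each of the 6 genes, in 36 group tests, of which 5 gave one; chance gives about 1 in 20. Sftpc was far above the rest at 2.87 in control replicate 1 of day 3 and at 3.98 in carbon black replicate 1 of day 3. Sftpa1 was so in the same carbon black mouse, at 1.55, and Sftpb in the same control mouse, at 1.85. Scgb1a1 was so in carbon black replicate 2 of day 28, at 0.56, a value below the 0.87 of a day 1 carbon black mouse. The 3 high values of Scgb1a1, Scgb3a1 and Cyp2f2 among day 3 controls were not single arrays and so were not singled out in this way.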

How the results depend on the processing

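In the 16 alternatives and with each of the 34 arrays left out, 0 of the tested members passed in any comparison, the lowest adjusted p of limma being 0.124. Of 1393 single-gene values, 51 changed sign, and none of these values was called. Of the 51, 24 fell in the day 3 exposure comparison or in control comparisons with day 3. The mean of the 3 days, which also holds day 3, is not counted in the 24. Sftpc could not be tested where probes had to be well above background on all arrays of a group. The count of all genes called over the mean of the 3 days, 387, ranged from 0 (slide, scan day or array position as a fixed block, and Agilent's processed signals) to 1520 over the alternatives and from 0 to 945 with single arrays left out, and was 1 without the 4 day 3 arrays. Over 30 arrays, 3 of 6 pairs of members had an r past the adjusted threshold. The count was 1 without background correction, with an offset of 10, with median centring in place of loess, in the authors' deposited table and centred on scan days. It was 0 with Agilent's processed signals, with the heart channel alone and, over 15 pairs, with no filter on dim probes. It stayed at 3 with the mean over the probes of a gene and with values centred on group means. Where probes had to be well above background on all arrays of a group, it was 2 of 3. The pairs need not be the same in each setting. The causes were not tested. No paired analysis was possible because replicate numbers follow the order of the samples, but 10 slides held both arms of a day, and with slide as a fixed or random block 0 members passed. Signal over background limits Sftpc, Sftpa1 and Sftpb most.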

Other observations

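Outside the 4 day 3 arrays, Sftpc was well above background on 7 of 30 arrays, and 4 of these were among the 6 arrays of highest Marco, the scavenger receptor of alveolar and lymph node macrophages. On those 6 arrays the deviation of Marco from its median over all arrays and the log2 ratio of Sftpc were 5.28 and 0.69 in day 28 carbon black replicate 1, 4.84 and 0.39 in day 28 control replicate 6, 4.65 and 0.87 in day 1 carbon black replicate 3, 4.36 and 0.87 in day 3 carbon black replicate 4, 3.16 and 1.60 in day 1 carbon black replicate 4, and 2.36 and -0.14 in day 1 carbon black replicate 2. The median deviation of Marco was 3.16 on the 7 arrays with Sftpc well above background and -0.13 on the other 23. Among the 7 arrays, Marco deviated by only 0.12 in day 3 carbon black replicate 5, 0.11 in day 28 carbon black replicate 3 and -0.31 in day 28 carbon black replicate 4. On day 3 control replicate 1, where the signal of Sftpc was highest, Marco deviated by 0.63. On day 3 carbon black replicate 1, with Sftpc at 3.98, it deviated by 0.94. On day 3 control replicate 5, with Sftpc at -0.01, it deviated by 2.40. These values were set side by side after they were seen, and no test was run.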
